A study of Mus musculus with 8 samples.

Results

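The liver genes described here encode 4 families of oxidising and hydrolysing enzymes: alcohol dehydrogenases (Adh), aldehyde dehydrogenases (Aldh), flavin-containing monooxygenases (Fmo) and carboxylesterases (Ces). They were chosen by name, as every gene whose name on the array was Adh, Aldh, Fmo or Ces followed by a digit, and the rule itself uses no measured value. Of the genes found, 37 are reported here, and 32 of them passed the filter for signal and were tested among 17044 genes in all: 5 of 6 Adh, 18 of 20 Aldh, 4 of 5 Fmo and 5 of 6 Ces. Adh6a, Aldh1l2, Aldh3a1, Fmo6 and Ces5a were not well above background on both arrays of any group and were not tested. Carboxylesterases are given by their current symbols, so that Ces1d, Ces1g, Ces2a, Ces2c, Ces2e and Ces5a appear on the array under the older names Ces3, Ces1, Ces6, Ces2, Ces5 and Ces7. The carboxylesterases Ces1c, Ces1e and Ces3b were not chosen by this rule and stand in a list of other enzymes described further below.

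RNA from mouse liver was hybridised to 8 one-colour Agilent arrays, 2 for each of 4 groups, the strains C57BL/6J and KKAy each at an age of 4 and of 11 weeks. The labels call KKAy diabetic and C57BL/6J normal, and the comparison asks how the liver of the diabetic strain differs from that of the normal one at each age. All mice ate standard chow under alternating light and dark and were fasted for 13.5 hours. KKAy mice carry the yellow Ay allele of agouti on the KK background, so the strain comparison covers every difference between KK and C57BL/6J as well as the diabetic state, and these cannot be told apart. The labels do not say whether the 2 samples of a group came from separate animals, so each p-value weighs a difference only against how far these samples scattered, and that scatter may be technical. The sex of the mice was not given in the sources used here. The Y-linked genes Ddx3y (1.42 to 1.89) and Eif2s3y (1.48 to 2.34) were well above background on all 8 arrays.

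Values are log2 signals relative to the array's own 75th percentile, so that 0 is the signal below which 75 percent of the array's probes lie. Between 56.3% and 66.7% of the spots on an array were well above background, and no spot was saturated. A difference was called where limma's Benjamini-Hochberg adjusted p, over all genes tested, was under 0.05. The arrays of the 4-week groups lay on 1 slide and those of the 11-week groups on the other. Age therefore cannot be told apart from slide. On both slides C57BL/6J took positions 1 and 2 and KKAy positions 3 and 4, so strain and position cannot be told apart either. All 9 hepatocyte markers were measured, and their summed signal ranged over 1.75e+03 to 2.68e+03 times the 75th percentile on the 8 arrays. At 11 weeks 3 of the 9 were called lower in KKAy (Apoa1, -1.03; Cps1, -0.91; Tat, -0.87) and 1 higher (Ttr, 0.53), and at 4 weeks Tat alone was called (-0.58). Of all genes tested 11.5% were called lower and 9.96% higher at 11 weeks, and 9% lower and 6.41% higher at 4 weeks. The 8 Kupffer cell and macrophage markers that were measured had summed levels of 150 to 180 in C57BL/6J at 4 weeks, 61 to 67.1 in C57BL/6J at 11 weeks, 55.3 to 63.4 in KKAy at 4 weeks and 34.1 to 36.3 in KKAy at 11 weeks. All 8 of them were called lower in KKAy at 4 weeks and 6 at 11 weeks, against 9% and 11.5% of all genes. Their part in the results on the enzymes was not tested.

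Alcohol dehydrogenases oxidise ethanol, retinol and other alcohols to aldehydes, and aldehyde dehydrogenases carry these on to acids. Both families also serve the liver's own metabolism, in retinoic acid synthesis, amino acid breakdown and the removal of lipid aldehydes. Flavin-containing monooxygenases add oxygen to nitrogen and sulphur atoms in drugs and dietary amines. Carboxylesterases split esters, amides and acylglycerols, and members of the Ces1 and Ces2 groups act on drugs and on stored lipid. Adh, Fmo and Ces genes lie in clusters of neighbouring copies, so that a probe may read more than 1 member.

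RefSeq promoter windows on GRCm38.p6, 250 bases before to 50 after the start of the gene, were held for 25 of the 32 members, with none for Adh6-ps1. The windows of Ces2a and Ces2c are shown because both genes were called lower in KKAy at both ages, that of Ces2e because it is their neighbour in the cluster, with probes that disagreed in direction, that of Adh4 because its gene rose with age in KKAy, and that of Fmo2 because its gene fell with age in both strains; capitals mark motif matches. Each name is followed by its sequence, 5′ to 3′ on the gene's strand.
Ces2a, chr8:104733753-104734052, plus strand: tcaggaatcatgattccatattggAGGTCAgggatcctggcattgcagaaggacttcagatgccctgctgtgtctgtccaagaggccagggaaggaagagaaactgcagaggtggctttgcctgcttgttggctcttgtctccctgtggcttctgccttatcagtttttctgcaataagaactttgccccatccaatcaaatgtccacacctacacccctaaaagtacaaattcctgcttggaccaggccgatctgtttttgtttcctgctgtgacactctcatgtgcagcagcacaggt
Ces2c, chr8:104846818-104847117, plus strand: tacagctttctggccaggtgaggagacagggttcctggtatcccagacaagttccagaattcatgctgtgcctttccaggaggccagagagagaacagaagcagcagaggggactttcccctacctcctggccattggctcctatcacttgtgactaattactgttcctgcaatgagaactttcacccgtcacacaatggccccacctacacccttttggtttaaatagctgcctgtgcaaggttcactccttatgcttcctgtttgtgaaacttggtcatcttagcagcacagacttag
Ces2e, chr8:104926010-104926309, plus strand: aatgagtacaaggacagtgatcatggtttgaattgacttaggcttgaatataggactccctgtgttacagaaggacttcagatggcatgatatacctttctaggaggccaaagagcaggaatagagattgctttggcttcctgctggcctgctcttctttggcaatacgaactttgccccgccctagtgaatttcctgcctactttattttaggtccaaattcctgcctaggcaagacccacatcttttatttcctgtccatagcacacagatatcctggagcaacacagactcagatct
Adh4, chr3:138415247-138415546, plus strand: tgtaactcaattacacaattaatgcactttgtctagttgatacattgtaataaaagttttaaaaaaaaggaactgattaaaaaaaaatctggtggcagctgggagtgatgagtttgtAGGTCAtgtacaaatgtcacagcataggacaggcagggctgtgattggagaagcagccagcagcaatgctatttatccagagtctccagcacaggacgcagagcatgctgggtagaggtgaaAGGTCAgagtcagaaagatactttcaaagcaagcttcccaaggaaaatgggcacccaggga
Fmo2, chr1:162898444-162898743, minus strand, 1 of 2 windows held for this gene: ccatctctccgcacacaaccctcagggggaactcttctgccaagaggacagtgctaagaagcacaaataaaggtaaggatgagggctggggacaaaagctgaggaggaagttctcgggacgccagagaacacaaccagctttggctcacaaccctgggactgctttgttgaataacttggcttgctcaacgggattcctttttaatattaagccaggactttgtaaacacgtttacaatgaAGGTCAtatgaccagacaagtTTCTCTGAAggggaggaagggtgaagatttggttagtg
In a global alignment the Ces2a and Ces2c windows were identical in 65.0% of 309 columns, Ces2a and Ces2e in 54.9% of 335, and Ces2c and Ces2e in 54.1% of 333.

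Motifs were searched on both strands of the windows as exact letters. A member was counted where any of its windows matched, and Adh5, Aldh1a1, Aldh6a1 and Fmo2 had more than 1. The share of all windows counts each window singly, so the measures differ. The nuclear receptor half-site AGGTCA was in the windows of 7 of the 25 members (Adh4, Aldh1l1, Aldh3b1, Aldh6a1, Ces2a, Fmo2 and Fmo4) and in 16.3% of 32851 windows of the same length. The Adh4 window held 2 copies, the Ces2a and Fmo2 windows shown 1 each. The GAS element TTCNNNGAA, a STAT motif, was in 4 members (Aldh18a1, Aldh8a1, Aldh9a1 and Fmo2) and in 8.3% of all windows, and TATAAA was in 5 (Adh5, Adh7, Aldh1a7, Ces1g and Fmo5) and in 13.6%. The other Fmo2 window, chr1:162898709-162899008, held none of these motifs. A match is only a run of letters, and the windows were not measured on the arrays.

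At 4 weeks, 8 of the 32 enzyme genes differed between the strains (25%), against a background of 15.4% of all genes tested. Of these, 2 were higher in KKAy, Aldh1a1 and Aldh4a1, and 6 were lower, Adh6-ps1, Aldh1a2, Aldh1b1, Aldh3a2, Ces2a and Ces2c. By direction the background was 6.41% higher and 9% lower. At 11 weeks 10 members differed (31.2%), against 21.5% of all genes: 6 were higher in KKAy (Adh4, Aldh1a1, Aldh1a7, Aldh4a1, Ces1g and Ces2e) and 4 lower (Aldh3a2, Ces2a, Ces2c and Fmo2), where the background was 9.96% higher and 11.5% lower. The median difference over the members was -0.05 at 4 weeks and 0.00 at 11 weeks, beside 0.01 at 4 weeks and -0.00 at 11 weeks over all genes. At both ages Aldh1a1 and Aldh4a1 were called higher and Aldh3a2, Ces2a and Ces2c lower, and no member was called in opposite directions at the 2 ages. With arrays scaled to spike-in probes, which moved the median of all genes at 4 weeks from 0.015 to 0.364, the split at 4 weeks was 4 higher and 3 lower. Under that scaling 18.1% of all genes were called, and 75.8% of those calls were higher. With no filter on dim probes 5 members were called at 4 weeks, against 5.45% of all genes. With only the 4 arrays compared in the fit 3 members were called, against 8.24% of all genes.

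**Figure D1:**
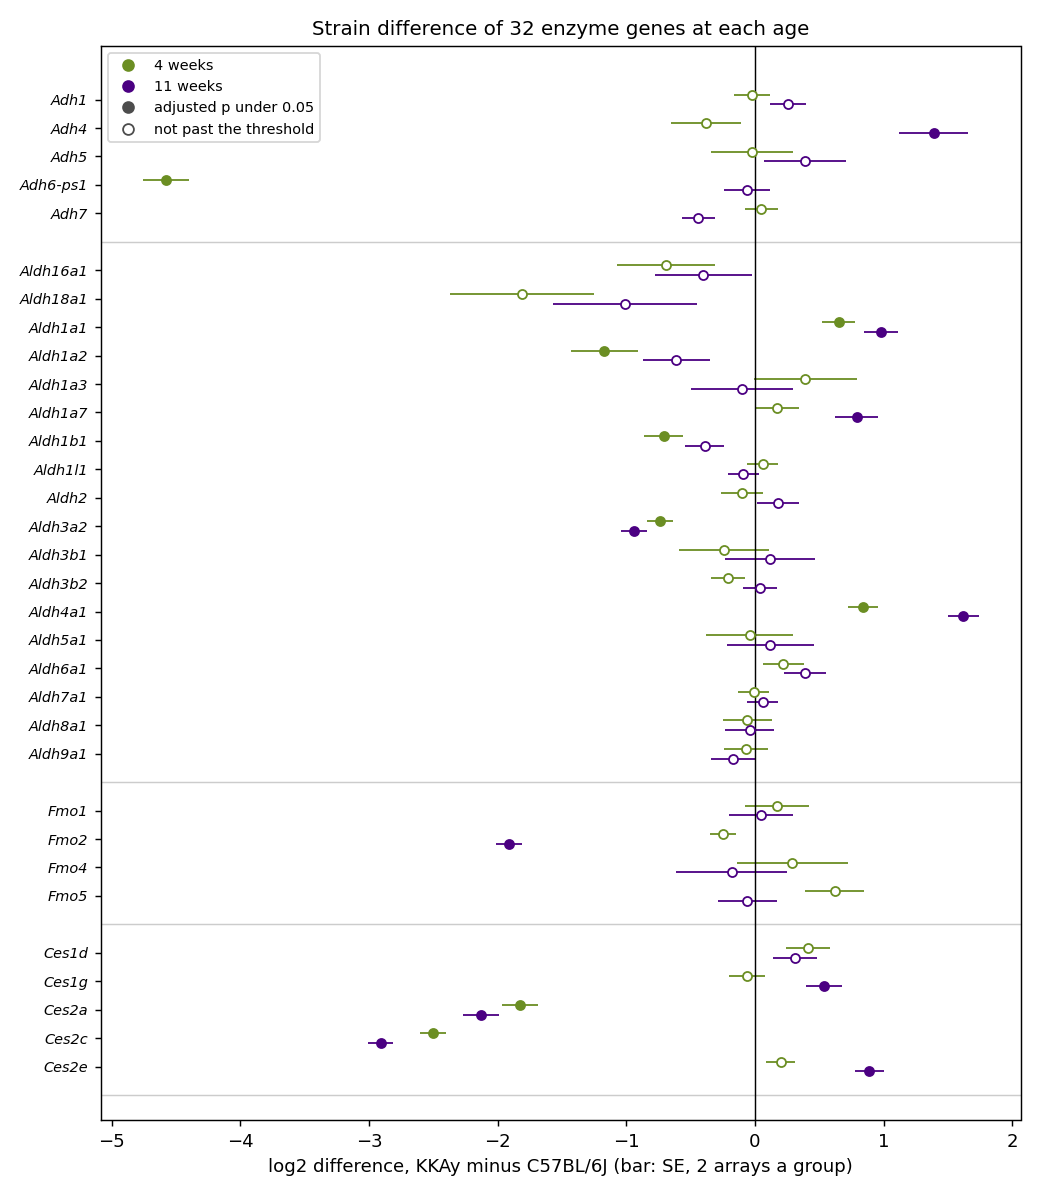
Difference between strains (KKAy minus C57BL/6J, log2, horizontal axis) of each of the 32 enzyme genes, listed by family, at 4 weeks (green) and 11 weeks (purple), with bars for the standard error and filled points for an adjusted p under 0.05. Ces2a and Ces2c stand left of 0 at both ages, Adh6-ps1 at 4 weeks and Fmo2 at 11 weeks; Adh6-ps1 in KKAy at 4 weeks and Aldh18a1 in every group but C57BL/6J at 4 weeks were not well above background, so these points rest on signals near the floor.

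Among the carboxylesterases, Ces2a, an esterase of the liver and gut, read 4.96 and 4.85 in C57BL/6J at 4 weeks, 5.12 and 4.96 in C57BL/6J at 11 weeks, 3.14 and 3.01 in KKAy at 4 weeks, and 3.05 and 2.77 in KKAy at 11 weeks. All 4 KKAy arrays lay below all 4 C57BL/6J arrays, and within each strain the ages lay close together. Ces2a was 3.56-fold lower in KKAy at 4 weeks (log2 difference -1.83, SE 0.14, limma adjusted p = 0.000791) and 4.37-fold lower at 11 weeks (-2.13, SE 0.14, adjusted p = 0.000367). Its probe lies at chr8:107628436-107628495 on mm8, the build of the array files.

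Ces2c, its neighbour in the Ces2 cluster, read 3.33 and 3.36 in C57BL/6J at 4 weeks, 3.52 and 3.50 at 11 weeks, 0.89 and 0.80 in KKAy at 4 weeks, and 0.68 and 0.53 at 11 weeks. The strains were again apart on every array. The difference was -2.50 at 4 weeks (5.67-fold, SE 0.10, limma adjusted p = 0.000149) and -2.91 at 11 weeks (7.51-fold, SE 0.10, adjusted p = 7.45e-05). A second Ces2c probe read 2.31, 2.74, 2.73 and 3.04 on the C57BL/6J arrays and was not well above background on any KKAy array. On that probe Ces2c was at least 219-fold lower in KKAy at 4 weeks and at least 259-fold lower at 11 weeks, counting the KKAy signal as the lowest that was well above background on its array or the probe's own, whichever was higher. The probes gave the same direction and very different sizes, and with the mean of all probes of a gene the Ces2c difference was -5.35 at 4 weeks and -6.39 at 11 weeks. Whether the probes match the KKAy sequence as well as that of C57BL/6J was not tested.

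Ces2e, also in that cluster, read 4.76 and 4.81 in C57BL/6J at 4 weeks, 4.21 and 4.28 at 11 weeks, 4.93 and 5.06 in KKAy at 4 weeks, and 5.05 and 5.22 at 11 weeks. Its brightest probe was called higher in KKAy at 11 weeks (0.89, SE 0.11, limma adjusted p = 0.00366) and not at 4 weeks (0.20, SE 0.11, adjusted p = 0.321). The second Ces2e probe went the other way, with differences of -1.84 at 4 weeks and -1.44 at 11 weeks, and the mean of both probes gave -0.27 at 11 weeks (adjusted p = 0.099). The direction of Ces2e therefore depends on the probe read.

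In the Ces1 group, Ces1g, an esterase that acts on stored lipid, was called higher in KKAy at 11 weeks on its brightest probe (0.54, SE 0.14, limma adjusted p = 0.0431), with 0.58 on its second probe. That call ended when any of the 8 arrays was left out (adjusted p 0.0544 to 0.217). Ces1d, the major triacylglycerol hydrolase among them, gave 0.41 at 4 weeks (adjusted p = 0.179) and 0.31 at 11 weeks (adjusted p = 0.247).

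**Figure D2:**
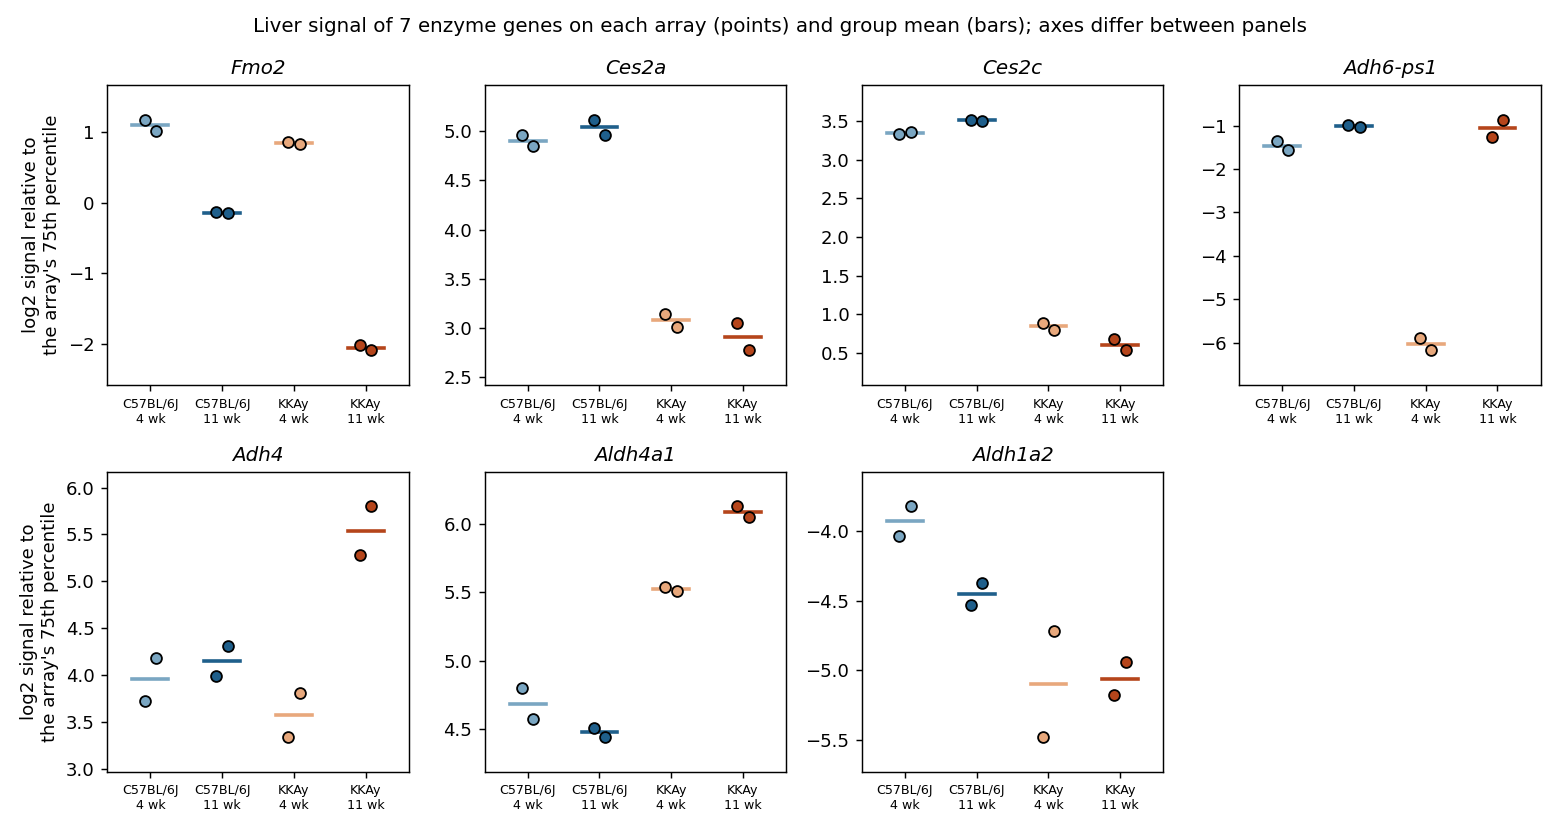
Log2 signal relative to the array's 75th percentile (vertical axes, which differ between panels) of the 7 enzyme genes with a called difference of at least 1, on each array (points) with the mean of the 2 arrays of each group (bars). Ces2a and Ces2c split by strain, Fmo2 by age and at 11 weeks by strain, Adh6-ps1 is low in KKAy at 4 weeks, and Adh4 is high in KKAy at 11 weeks.

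Among the aldehyde dehydrogenases, Aldh4a1, the mitochondrial enzyme of the last step of proline breakdown to glutamate, was higher in KKAy at both ages. It read 4.80 and 4.57 in C57BL/6J at 4 weeks, 4.51 and 4.44 at 11 weeks, 5.54 and 5.51 in KKAy at 4 weeks, and 6.13 and 6.05 at 11 weeks. All KKAy arrays were above all C57BL/6J arrays, and within KKAy the 11-week arrays were above the 4-week arrays. The strain difference was 0.84 at 4 weeks (SE 0.12, limma adjusted p = 0.00626) and 1.62 at 11 weeks (3.06-fold, SE 0.12, adjusted p = 0.000527). The change between these, 0.78, did not pass the test (SE 0.16, adjusted p = 0.0659). The second Aldh4a1 probe gave 0.32 and 1.08, and with the mean of both probes the 4-week call was lost (0.58, adjusted p = 0.183), as it was after quantile normalization (0.79, adjusted p = 0.0564).

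Aldh1a1, the cytosolic retinal dehydrogenase that is abundant in liver, was called higher in KKAy at 4 weeks (0.65, SE 0.13, limma adjusted p = 0.0253) and at 11 weeks (0.98, SE 0.13, adjusted p = 0.00509). Its arrays read 7.17 and 7.37, then 7.53 and 7.58 in C57BL/6J at 4 and 11 weeks, and 7.81 and 8.04, then 8.45 and 8.62 in KKAy. The 4-week call ended on leaving out any 1 of 6 of the 8 arrays (adjusted p 0.0554 to 0.138), while the 11-week call held without any 1 array. Spike-in scaling raised the 4-week difference of Aldh1a1 from 0.65 to 1.0 (adjusted p = 0.00787). Aldh1a7, its close paralog on chromosome 19, was called higher only in the 11-week comparison (0.79, SE 0.17, adjusted p = 0.0239, against 0.17 at 4 weeks), and the change between ages was not called (0.61, adjusted p = 0.261). The Aldh1a7 call was lost without either C57BL/6J 11-week array (adjusted p 0.146 and 0.0877) or KKAy 11-week replicate 2 (0.101). Whether the probe of either paralog also reads the other was not tested.

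Lower in KKAy were Aldh3a2, the fatty aldehyde dehydrogenase of the endoplasmic reticulum, Aldh1b1, a mitochondrial enzyme of acetaldehyde and retinal oxidation, and Aldh1a2, which makes retinoic acid. Aldh3a2 read 4.86 and 4.93, then 5.24 and 5.27 in C57BL/6J at 4 and 11 weeks, and 4.09 and 4.24, then 4.28 and 4.36 in KKAy. Its strain difference was -0.74 at 4 weeks (SE 0.10, limma adjusted p = 0.0069) and -0.94 at 11 weeks (SE 0.10, adjusted p = 0.00236). Scaling to the spike-in probes reduced the 4-week difference to -0.39 (adjusted p = 0.158), and it was also not called without C57BL/6J 4-week replicate 2 (0.0548) or KKAy 4-week replicate 1 (0.0501). The 11-week call of Aldh3a2 held without any 1 array.

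Aldh1a2 read -4.03 and -3.82 in C57BL/6J at 4 weeks, -4.53 and -4.37 at 11 weeks, -5.48 and -4.72 in KKAy at 4 weeks, and -5.18 and -4.94 at 11 weeks. The KKAy arrays lay below the C57BL/6J arrays, and the 2 KKAy 4-week arrays were far apart. It was called lower at 4 weeks (-1.17, 2.26-fold, SE 0.26, limma adjusted p = 0.0321) and not at 11 weeks (-0.61, SE 0.26, adjusted p = 0.162). With normexp background correction the 4-week difference was -0.24 (adjusted p = 0.659), and the call was lost on leaving out any 1 of 5 of the 8 arrays (0.0714 to 0.152). The 8 stellate cell and fibroblast markers had summed levels of 58.1 to 66.5 in C57BL/6J and 48.4 to 56.5 in KKAy at 4 weeks. Of these, 2 of 8 were called lower in KKAy, against 9% of all genes. The part of these markers in the Aldh1a2 result was not tested. Aldh1b1 was called lower at 4 weeks (-0.71, SE 0.15, adjusted p = 0.0296) but not after spike-in scaling (-0.36, adjusted p = 0.207), nor without any 1 of 6 of the 8 arrays (0.0571 to 0.152).

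Aldh2, the mitochondrial enzyme that clears acetaldehyde, gave -0.10 at 4 weeks and 0.18 at 11 weeks on its brightest probe, and neither was called. A second Aldh2 probe read 0.63, 0.95, 0.84 and 1.03 on the C57BL/6J arrays and -1.70, -1.39, -1.16 and -0.69 on the KKAy arrays, differences of -2.33 and -1.86. Its strains were apart on every array where those of the brightest probe were not called. Aldh18a1, an enzyme of proline synthesis, was well above background on the 2 C57BL/6J 4-week arrays only. This puts it at least 1.81-fold lower in KKAy at 4 weeks, and the fitted difference was not called (limma adjusted p = 0.0936). The remaining 10 Aldh genes measured on every array, Aldh16a1, Aldh1a3, Aldh1l1, Aldh3b1, Aldh3b2, Aldh5a1, Aldh6a1, Aldh7a1, Aldh8a1 and Aldh9a1, were called in none of the comparisons.

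**Figure D3:**
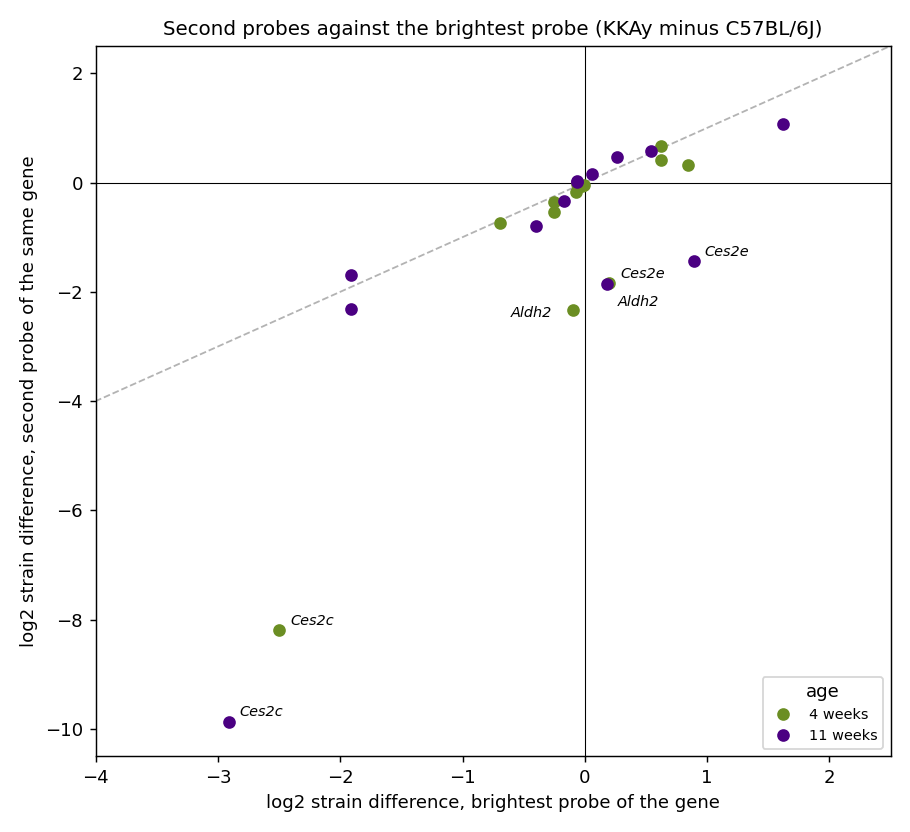
Log2 strain difference (KKAy minus C57BL/6J) on the second probes of a gene (vertical axis) against the brightest probe of the same gene (horizontal axis) for the 11 members with more than 1 usable probe, at 4 weeks (green) and 11 weeks (purple), with the line of equality dashed. Most points lie near the line, while Ces2c, Ces2e and Aldh2 lie below it; the vertical values of Ces2c rest on KKAy signals that were not well above background.

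Over the whole set, 11 members had 13 second probes. Of the 16 pairings of a called difference with a second probe of its gene, 15 had the same sign and 1, Ces2e at 11 weeks, the opposite one. These pairings came from Aldh4a1, Ces1g, Ces2c, Ces2e and Fmo2 only. Fmo2 entered with each of its second probes in several comparisons, and the Ces1g probes overlap in position, so the pairings are not independent. Ces2a, Adh4 and Adh6-ps1 had a single usable probe each, so their differences have no such check.

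Among the alcohol dehydrogenases, the classical ethanol enzyme Adh1 was not called (-0.02 at 4 weeks and 0.26 at 11 weeks, limma adjusted p = 0.97 and 0.275), and Adh5, which clears formaldehyde bound to glutathione, was also not called (-0.02 and 0.39). Adh4, which oxidises retinol and long-chain alcohols, read 3.73 and 4.18 in C57BL/6J at 4 weeks, 3.99 and 4.31 at 11 weeks, 3.34 and 3.81 in KKAy at 4 weeks, and 5.28 and 5.80 at 11 weeks. The KKAy 11-week arrays were above the other 6, which overlapped. Adh4 was 2.61-fold higher in KKAy at 11 weeks (1.39, SE 0.27, adjusted p = 0.0176) and not called at 4 weeks (-0.38, SE 0.27, adjusted p = 0.471). The 11-week call was lost without C57BL/6J 11-week replicate 1 (0.114), replicate 2 (0.0632) or KKAy 11-week replicate 2 (0.0739). The change of the strain difference with age, 1.77, did not pass the test (SE 0.39, adjusted p = 0.073). In each group replicate 2 of Adh4 read above replicate 1, and this shift counts as scatter in that test. The replicate numbers have no stated meaning.

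Adh6-ps1, annotated by RefSeq as a transcribed pseudogene of the cluster on chromosome 3, read -1.36 and -1.56 in C57BL/6J at 4 weeks, -0.98 and -1.02 at 11 weeks, -5.89 and -6.18 in KKAy at 4 weeks, and -1.26 and -0.86 at 11 weeks. It was well above background on every array but the 2 KKAy 4-week ones. Adh6-ps1 was at least 13.9-fold lower in KKAy than in C57BL/6J at 4 weeks. The limma adjusted p of 0.000134 belongs to the fitted difference of -4.58, not to this bound. At 11 weeks the strains overlapped (-0.06, SE 0.18, adjusted p = 0.856), and the fitted change with age differed between strains (adjusted p = 0.00204). With normexp background correction the 4-week difference was -1.75 (adjusted p = 0.00255). The probe lies at chr3:138325409-138325468 on mm8. Whether it also reads a coding neighbour of the cluster was not tested.

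With age, 2 of the 32 members fell in C57BL/6J and none rose (6.25%, against 8.38% of all genes called), a share no higher than the background. They were Fmo2 and Ces2e. By direction the background was 1.9% higher and 6.48% lower. In KKAy 7 members differed between 4 and 11 weeks (21.9%, against 18.6% of all genes): Adh4, Adh6-ps1, Aldh1a1, Aldh1a7 and Aldh4a1 rose, where the background was 7.9%, and Adh7 and Fmo2 fell, where it was 10.7%. The medians over the members were 0.04 in C57BL/6J and 0.08 in KKAy, beside 0.05 and 0.02 over all genes. Quantile normalization gave 3 higher and 2 lower in KKAy, spike-in scaling 2 higher and 4 lower. Of all genes 19.8% and 17% were called under these settings. Of those calls 43.5% and 19.5% were higher, against 42.4% without either setting. In each fit with 1 array left out a smaller share of all genes was called in KKAy than with all 8 arrays. With 1 array left out, 3 members were called in KKAy where it was a C57BL/6J 11-week or KKAy 4-week array, and 4 where it was a KKAy 11-week array.

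**Figure D4:**
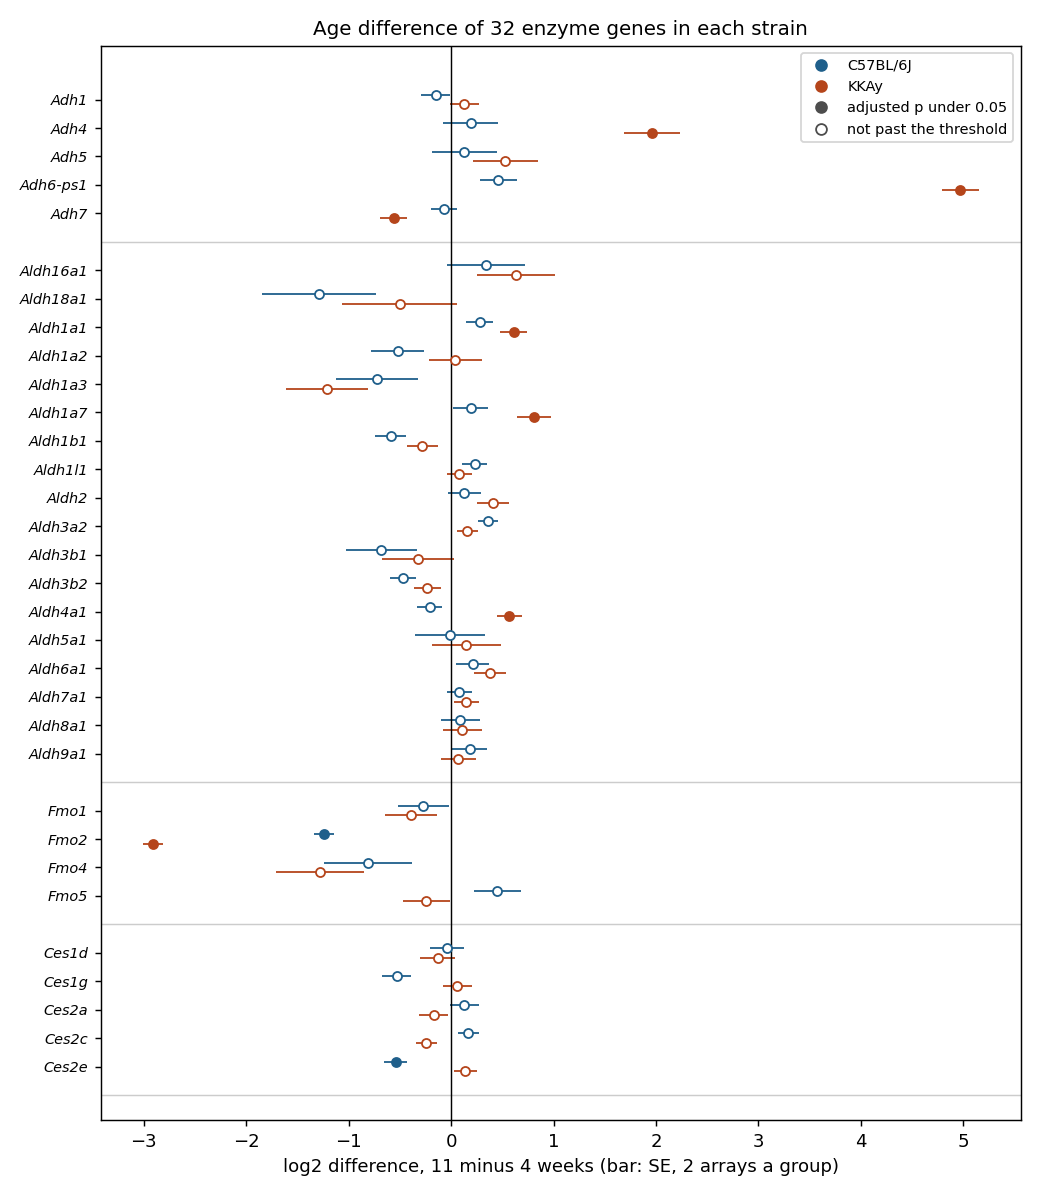
Difference between ages (11 minus 4 weeks, log2, horizontal axis) of each of the 32 enzyme genes, listed by family, in C57BL/6J (blue) and KKAy (orange), with bars for the standard error and filled points for an adjusted p under 0.05. Fmo2 fell in both strains, and Adh6-ps1 and Adh4 rose in KKAy; the value of Adh6-ps1 in KKAy rests on 4-week signals that were not well above background, and each age lay on its own slide.

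Fmo2, the flavin-containing monooxygenase best known from the lung, read 1.18 and 1.02 in C57BL/6J at 4 weeks, -0.13 and -0.15 at 11 weeks, 0.86 and 0.84 in KKAy at 4 weeks, and -2.02 and -2.09 at 11 weeks. The 11-week arrays were below the 4-week arrays in each strain, and the KKAy 11-week arrays were the lowest. Fmo2 fell by 1.24 on the log2 scale with age in C57BL/6J (2.37-fold, SE 0.10, limma adjusted p = 0.00212) and by 2.91 in KKAy (7.5-fold, SE 0.10, adjusted p = 0.000114). It was 3.77-fold lower in KKAy at 11 weeks (-1.91, adjusted p = 0.000215) and not called at 4 weeks (-0.25, adjusted p = 0.186). The age effects differed by -1.66 (SE 0.15, adjusted p = 0.00599), with -1.79 and -1.36 on the other 2 probes. That last call was lost without C57BL/6J 11-week replicate 1 (0.0563) or replicate 2 (0.0566). The brightest Fmo2 probe lies at chr1:164713371-164713430 on mm8.

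Some markers of stellate cells and fibroblasts, Kupffer cells, endothelium and lymphocytes were, like Fmo2, called lower with age in each strain. Fmo2 was not called between strains at 4 weeks. There 8 of 8 Kupffer, 5 of 7 lymphocyte and 2 of 8 stellate markers were called lower in KKAy, against 9% of all genes. Of 7 endothelial markers 1 was called higher and 1 lower there, against 6.41% and 9% of all genes. The change of the strain difference, negative for Fmo2, had medians of -0.37 over the stellate, -0.32 endothelial, 0.56 Kupffer and 0.48 lymphocyte markers. Its median over all genes was 0.01. With age 6.48% of all genes were called lower in C57BL/6J and 10.7% in KKAy. From 4 to 11 weeks 3 of 8 stellate markers were called lower in C57BL/6J and 7 of 8 in KKAy, with summed levels of 58.1 to 66.5 at 4 weeks and 44.6 to 49 at 11 weeks in C57BL/6J, and 48.4 to 56.5 and 24.3 to 30.6 in KKAy. Of the 8 Kupffer markers 7 were called lower with age in C57BL/6J and 4 in KKAy. Of 7 endothelial markers 1 was called lower in C57BL/6J and 4 in KKAy, with summed levels of 40.7 to 41 and 33.6 to 35 at 4 and 11 weeks in C57BL/6J and 55.7 to 58.4 and 40.7 in KKAy. Among them Lyve1 had the lowest value both with age in KKAy (-2.23) and between strains at 11 weeks (-2.18). The medians of the 7 endothelial markers in these comparisons were -0.65 and -0.40. At 11 weeks 1 of the 7 was called higher in KKAy and 2 lower, against 9.96% and 11.5% of all genes. Of 7 lymphocyte markers 4 were called lower with age in each strain, with summed levels of 2.35 to 2.57 and 1.02 to 1.06 in C57BL/6J and 1.1 to 1.11 and 0.742 to 0.743 in KKAy. The part of all these markers in the fall of Fmo2 was not tested, and in whole liver fewer cells of a type and less RNA per cell cannot be told apart. Fmo1, Fmo4 and Fmo5 were called in none of the comparisons.

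Of the other members that differed with age, Adh4 rose by 1.96 on the log2 scale in KKAy (3.89-fold, SE 0.27, limma adjusted p = 0.00683), against 0.19 in C57BL/6J (adjusted p = 0.795). Adh6-ps1 was at least 18.2-fold higher at 11 than at 4 weeks in KKAy (adjusted p = 0.000114 for the fitted difference), against 0.46 in C57BL/6J (SE 0.18, adjusted p = 0.22). Aldh1a1 (0.61), Aldh1a7 (0.81) and Aldh4a1 (0.57) also rose in KKAy, with adjusted p of 0.0298, 0.0259 and 0.0234. Each of these 3 calls was lost on leaving out any 1 of 5 or 6 of the 8 arrays, and each also after spike-in scaling (0.40 for Aldh1a1, 0.60 for Aldh1a7 and 0.36 for Aldh4a1). Quantile normalization ended those of Aldh1a1 (0.24) and Aldh4a1 (0.42), and the mean of probes that of Aldh4a1 (0.57, adjusted p = 0.163). Adh7, the alcohol dehydrogenase of the stomach, was called lower with age in KKAy (-0.56, SE 0.13, adjusted p = 0.0341), and Ces2e in C57BL/6J (-0.54, SE 0.11, adjusted p = 0.0392). Both calls were lost when any 1 array was left out (0.0537 to 0.157 and 0.051 to 0.248). Ces2a (0.13 and -0.17) and Ces2c (0.17 and -0.24) were not called with age in either strain.

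The change of the strain difference between 4 and 11 weeks was called for 2 of the 32 members (6.25%), against 3.81% of all genes. It was positive for Adh6-ps1, where the background was 2.06%, and negative for Fmo2, where it was 1.75%. Quantile normalization gave 2 positive calls and 1 negative, where 4.99% of all genes were called. Without either C57BL/6J 11-week array 1 member, Adh6-ps1, was called. The median over the members was 0.21, beside 0.01 over all genes.

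Other enzymes and carriers of alcohols, aldehydes, retinoids, flavins and esters that the name rule did not choose were followed as a list. It held 59 genes, of which 56 were measured, among them the carboxylesterases Ces1c, Ces1e and Ces3b. Ces1c (-0.10 at 4 weeks and -0.23 at 11 weeks) and Ces3b (-0.38 and -0.25) were called in none of the comparisons. In KKAy 5 of the 56 were higher and 3 lower at 4 weeks, and 12 were higher and 4 lower at 11 weeks, which is 14.3% and 28.6% called, against 15.4% and 21.5% of all genes. With age 2 rose and 4 fell in C57BL/6J, 12 rose and 6 fell in KKAy, and the strain difference changed upward for 4 and downward for 2. These are 10.7%, 32.1% and 10.7% of the list, against 8.38%, 18.6% and 3.81% of all genes. The list's median differences were -0.00, 0.28, 0.09, 0.25 and 0.26 in these 5 comparisons.

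Cyp26a1, which breaks down retinoic acid, read -1.60 and -1.51 in C57BL/6J at 4 weeks, 0.18 and 0.25 at 11 weeks, -0.37 and -0.20 in KKAy at 4 weeks, and 2.48 and 2.62 at 11 weeks. It was higher in KKAy at both ages (1.27 and 2.33, limma adjusted p = 0.00146 and 0.000166) and rose with age in both strains (1.77 and 2.84). Akr1b3, the aldose reductase, was higher in KKAy by 1.85 at 4 weeks (adjusted p = 0.00095) and by 2.87 at 11 weeks (adjusted p = 0.000187). Aox3, an aldehyde oxidase, was lower in KKAy at 4 weeks (-1.02, adjusted p = 0.00305, and -0.67 after spike-in scaling) and higher at 11 weeks (1.42, adjusted p = 0.000753), with a change between ages of 2.44 (adjusted p = 0.00286). In KKAy it rose with age by 2.69 (adjusted p = 0.000161), as did its paralog Aox1 by 1.60 (adjusted p = 0.00151). Ces1e, a carboxylesterase listed on the array under the older name Es22, was higher in KKAy at 11 weeks (1.52, SE 0.21, adjusted p = 0.00512) and rose with age in KKAy (1.36, SE 0.21, adjusted p = 0.00946). The age call of Ces1e ended without KKAy 4-week replicate 1 (0.0538) and with only the arrays compared (0.0603).

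Akr1b7, an aldo-keto reductase, was not well above background on the KKAy 11-week arrays, and was at least 9.02-fold lower there than in C57BL/6J (limma adjusted p = 0.000302) and at least 16.9-fold lower than in KKAy at 4 weeks (adjusted p = 0.000263). The adjusted p-values given beside bounds here belong to the fitted differences, not to the bounds. With normexp background correction the fitted log2 differences of Akr1b7 were -1.36 and -1.99. Dhrs9, a retinol dehydrogenase, was not well above background on any KKAy array, at least 2.64-fold lower than in C57BL/6J at 4 weeks and at least 4.58-fold at 11 weeks (adjusted p = 0.00232 and 0.000434). With normexp background correction neither Dhrs9 call held (-0.37 and -0.99, adjusted p = 0.517 and 0.0537). Pnpla3, a lipase of the lipid droplet, was above background only on the KKAy 4-week arrays, at least 2.35-fold higher than in C57BL/6J (adjusted p = 0.0121, and 0.126 with normexp), a call lost without either C57BL/6J 4-week array (0.0611 and 0.0732) or KKAy 4-week replicate 2 (0.0678). Pnpla2, the adipose triglyceride lipase, fell with age in KKAy by 1.47 on the log2 scale (adjusted p = 0.000545), and its age effect differed between strains by -1.42 (adjusted p = 0.00681), a call lost without C57BL/6J 11-week replicate 1 (0.0588) or replicate 2 (0.0632).

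Of 14 regulators known to act on these families, all were measured. In KKAy 2 were higher and 2 lower at 4 weeks, and 3 were higher and 1 lower at 11 weeks, 28.6% at each age against 15.4% and 21.5% of all genes. Nr0b2, the small heterodimer partner that represses other nuclear receptors, read 0.08 and -0.12 in C57BL/6J at 4 weeks, 0.74 and 0.59 at 11 weeks, -1.06 and -1.09 in KKAy at 4 weeks, and 1.69 and 1.46 at 11 weeks. It was below C57BL/6J at 4 weeks (-1.05, SE 0.13, limma adjusted p = 0.00458) and above it at 11 weeks (0.91), and its age effect differed between strains by 1.97 (adjusted p = 0.00787). The 4-week call of Nr0b2 ended with spike-in scaling (-0.71, adjusted p = 0.0521), and that of the difference between age effects without C57BL/6J 11-week replicate 1 (0.0547) or replicate 2 (0.0626). With age 1 of the 14 rose in C57BL/6J and none fell, and 2 rose and 2 fell in KKAy, which is 7.14% and 28.6% against 8.38% and 18.6% of all genes.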

How the data were processed

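Scanner files from Agilent Feature Extraction 9.5.1.1 gave the spot intensities used here. Per the file headers, the authors deposited processed intensities (gProcessedSignal) that were background-subtracted, corrected for trends across the array and set to surrogate values for the dimmest spots. The authors' deposited value table is on a log2 scale of unstated centring. It matched log2(gProcessedSignal) minus 1 constant per array within 0.001 for at least 99.548% of probes, with column medians of -3.963 to -3.674.

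Control spots and outlier flags were left out, spots of a probe averaged, and each array's 75th percentile over probes (476 to 1192 intensity units) subtracted on the log2 scale. A probe was kept if both arrays of some group read it well above background (25312 of 41174 probes), and each gene was read by its brightest probe. The 4 groups were fitted over 8 arrays with limma 3.58.1 in R 4.3.3 (lmFit, eBayes), with 4 residual degrees of freedom, and p-values adjusted over all genes tested. The fit was also run on simulated data with noise drawn independently for each array. Replicate shifts shared between groups were not simulated, so that run cannot show how the fit handles them. The number of arrays limits the precision. Gene symbols were updated through RefSeq (24375 probes by accession, 6301 by symbol, 2426 by older symbol), and 8072 probes kept the file's name.

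Members with a called log2 difference of at least 1 are given on every array, other called members by their differences, and up to 6 genes of each list per comparison. The members and lists were chosen with earlier results of these data known. The members and the list of other enzymes each leave out 1 gene that is not reported here. Alternatives tried were normexp (offset 50), the deposited table, quantile and spike-in scaling (7 probes), other filters, the mean of probes, only the arrays compared, a replicate block and leaving out each array.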

Additional observations from a re-analysis of the deposited data

Results flagged for a closer look

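The strain difference changed between 4 and 11 weeks, by limma's test of the interaction, for 2 members. For Adh6-ps1 the fitted change was 4.51 on the log2 scale (adjusted p = 0.00204), a value that is not a measured size, since neither KKAy 4-week array was well above background. The gene was at least 13.9-fold lower in KKAy at 4 weeks, and the strain difference was -0.06 at 11 weeks. For Fmo2 it was -1.66 (SE 0.15, adjusted p = 0.00599), from -0.25 to -1.91. Each group held 2 arrays, too few to look for an array that stands apart from the rest of its group.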

How the results depend on the processing

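The counts of members called moved by more than 1.5 times under these settings. At 4 weeks 8 members differed between strains, and 5 did with no filter on dim probes and 3 with only the arrays compared. With age in KKAy 7 differed, and 3 did under either of those settings. With age in C57BL/6J 2 differed, and 1, Fmo2, did under either of them and after spike-in scaling. The strain difference changed for 2 members, and for 1 when only probes above background on all arrays were used, which leaves out Adh6-ps1. The share of all genes called moved too. At 4 weeks it was 15.4%, then 5.45% with no filter and 8.24% with only the arrays compared. With age in KKAy it was 18.6%, 5.3% and 4.35% in that order. With age in C57BL/6J it was 8.38%, 2.54% and 6.62%, and 6.96% after spike-in scaling. For the change it was 3.81%, and 4.28% with probes above background on all arrays. Leaving out 1 array gave 4 to 8 members between strains at 4 weeks, 7 to 9 at 11 weeks, 1 with age in C57BL/6J, 3 to 6 with age in KKAy and 1 to 2 for the change of the strain difference. The replicate numbers have no stated meaning, and the difference of replicate 2 from replicate 1 correlated between groups at 0.530 to 0.676 over 17033 genes. With the number as a replicate block 17 members differed at 4 weeks, 17 at 11 weeks, 13 with age in C57BL/6J, 18 with age in KKAy and 14 for the change, and all calls of the fit without the block were among them, while the share of all genes called rose to between 31% and 55%. The mean of all probes reversed Ces2e at 11 weeks, to -0.27. Of 29 called results on 14 members, recomputed 488 times, 379 values stayed past the threshold, 108 kept their direction only and 1 reversed, and 14 results were called in every alternative that gave a value. Fits without an array assume that the lone sample left varies like the other groups. Dim probes limit Adh6-ps1, where normexp gave -1.75 in place of the fitted -4.58 at 4 weeks, 2.13 in place of 4.97 with age in KKAy and 1.70 in place of 4.51 for the change, none of them a measured size. The cause of these shifts was not tested.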
